A study of Talpa occidentalis with 2 samples.

Results

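The Iroquois genes IRX1 to IRX6 encode homeodomain transcription factors of the TALE class, and they are described here together with FTO and RPGRIP1L in the deposited gene annotation of the Iberian mole, Talpa occidentalis (build talOcc3). The 7 genes asked for were IRX1, IRX2, IRX4, IRX5, IRX6, FTO and RPGRIP1L, found by the name of their gene record without a copy or low-confidence suffix. Of these 7, IRX5, IRX6, FTO and RPGRIP1L had 1 model each among 23336 gene models. The table analysed here held no record named IRX1, IRX2 or IRX4. IRX3, which was looked for between FTO and IRX5, had no record either. Whether the copy of the table analysed here is complete could not be checked, so a gene without a record in it may have one elsewhere, and each gap and count of missing genes below is that of this copy. Of the 2 Iroquois clusters that mammals carry, only the one beside FTO could therefore be described from models, and the other is described by the place where a later annotation puts it.

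The series holds 1 library from forebrain and 1 from hindlimb, both from wild-type embryos of embryonic day 15. Both are 4C-seq libraries, in which fixed chromatin is cut and ligated so that the partners of a chosen viewpoint can be sequenced, and the viewpoint of both was the FGF9 transcription start. The contacts themselves were not analysed here, there are no replicates, and the depth is unknown. All values below are positions and lengths in 1 annotation, so none carries a p-value.

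In mammals the Iroquois genes lie in 2 clusters of 3. One holds IRX1, IRX2 and IRX4, and the other holds IRX3, IRX5 and IRX6 next to FTO. In mouse they pattern the nervous system, heart and limb, and Irx3 and Irx5 also act in ovarian follicles. FTO encodes an RNA demethylase, and its introns are known for enhancers that act on IRX3 and IRX5 at a distance. RPGRIP1L encodes a protein of the ciliary transition zone. In the mouse mutant Fused toes, a deletion removes this whole stretch.

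The 4 members with models lay in a row on scaffold 26, in the order IRX6, IRX5, FTO, RPGRIP1L from low to high coordinates. IRX6, at 23593701 to 23595327, IRX5, at 23852396 to 23852857, and FTO, at 24648825 to 24698858, were on the minus strand. RPGRIP1L, at 24783695 to 24871007, was on the plus strand. In human, RPGRIP1L is on the minus strand and the other members of this stretch with a mole model are on the plus strand. All 4 of 4 mole models had the opposite strand to the human gene. The strands of the members were thus kept relative to each other, and the stretch as a whole was turned relative to human coordinates. All 4 lie on scaffold 26, so the direction in which that scaffold is written turns them together. Whether the turn reflects more than that direction was not tested.

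IRX6 and IRX5 are read away from FTO, and FTO and RPGRIP1L are read away from each other. From IRX6 to RPGRIP1L the stretch measured 1.28 Mb and held 6 models, which covered 11.3% of it. The 2 models that are not members, KLHL41 and BBS5_copy2, lay between IRX5 and FTO.

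**Figure D1:**
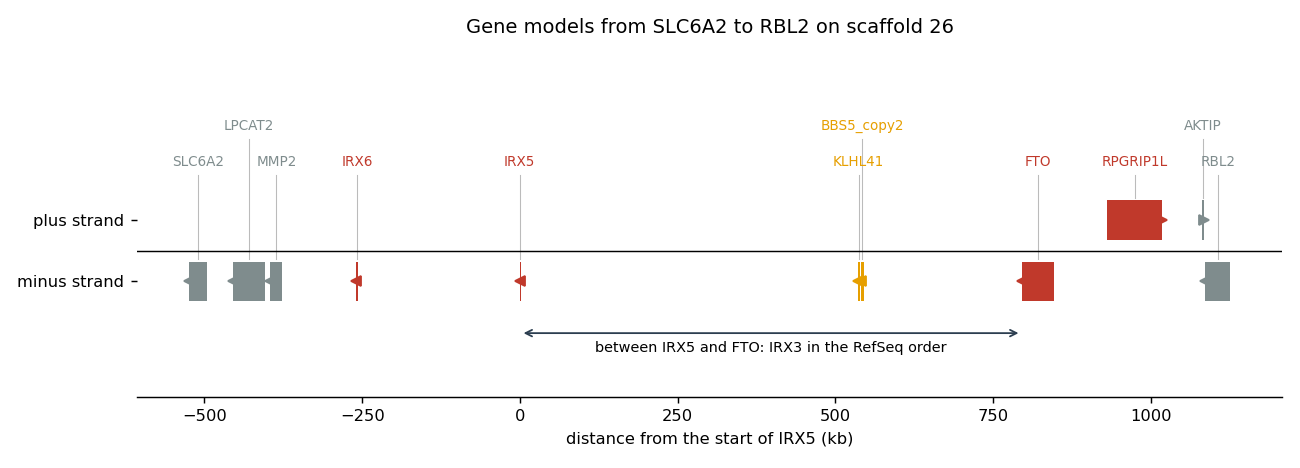
Gene models on scaffold 26 from SLC6A2 to RBL2, drawn to scale by strand, with distance from the start of IRX5 in kb on the x axis. Members are red, KLHL41 and BBS5_copy2 are orange, other models are grey, and the double arrow spans the 796 kb between the IRX5 and FTO models.

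IRX6, known in mouse for a role in retinal bipolar cells, had a model made by EVM, which merges gene predictions from different kinds of evidence. Its 4 coding exons measured 3, 258, 110 and 394 bases in the direction of reading, 765 coding bases in 1.63 kb. The 3-base exon is the first one, and it is followed by an intron of 70 bases. The deposited match of the model to its named target transcript ran from base 1175 to base 1834 of that target. Of the 765 coding bases, 105 lay outside this match. Target positions count from the first base of the target, and how much of a target is untranslated is not stated in the table.

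IRX5, which is required for heart and craniofacial development in human and mouse, had a model from a source named ALN with 1 coding exon of 462 bases. Its match covered bases 1436 to 1892 of the target transcript. The matches of both Iroquois models thus began at base 1175 or later of their targets, against a median first matched base of 284 over the 21473 models with a match. The table gives no target lengths, so where a match lies as a share of its target is unknown. Whether either model holds the whole coding sequence of its gene was not tested. A match that began as far in as that of IRX5 was found for 7.16% of these models, and one as far in as that of IRX6 for 9.70%. In coding length, 17.1% of all models were as short as IRX5 or shorter and 34.6% as short as IRX6 or shorter, where the median was 1011 bases.

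FTO had an EVM model of 7 coding exons and 1290 coding bases over 50.03 kb, of which 2.58% was coding. From its first exon on, these measured 87, 78, 622, 147, 80, 144 and 132 bases. Its longest intron, after the fourth exon, was 14.85 kb, and the intron after the second exon measured 13929 bases. Of all models, 12.3% spanned as much as FTO or more. Its target match began at base 232 and ended at base 1425, and 57.8% of matches began as far in or further. Of the 1290 coding bases, 99 lay outside this match.

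RPGRIP1L had 26 coding exons, from 51 to 453 bases long, with 3867 coding bases over 87.3 kb. All 3867 coding bases were inside its target match, which ran from base 144 to base 3989. As many exons or more were found in 4.23% of models. Compared with it, the Iroquois models were small, and the stretch had 2 long models at one end and 2 short ones at the other.

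The intervals between these models were long. MMP2, which encodes a matrix metalloproteinase, ended 117 kb before IRX6, and 257 kb separated IRX6 from IRX5. From IRX5 to KLHL41 there were 536 kb without a model, the longest interval of the stretch. KLHL41 and BBS5_copy2 were only 3.39 kb apart. BBS5_copy2 was followed by 251 kb up to FTO, FTO by 84.8 kb up to RPGRIP1L, and RPGRIP1L by 63.5 kb up to AKTIP, a gene named for an AKT-interacting protein.

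The median of these 7 gaps was 117 kb, against 16.3 kb over the 20408 intergenic gaps of the annotation. At least 100 kb was reached by 4 of the 7, and by 15.2% of all gaps. As long as the gap from IRX5 to KLHL41 were 461 gaps (2.26%), and it ranked 10 of 346 on scaffold 26. As long as the gap between IRX6 and IRX5 were 6.08% of gaps. The limit of 100 kb was set after these lengths had been seen.

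**Figure D2:**
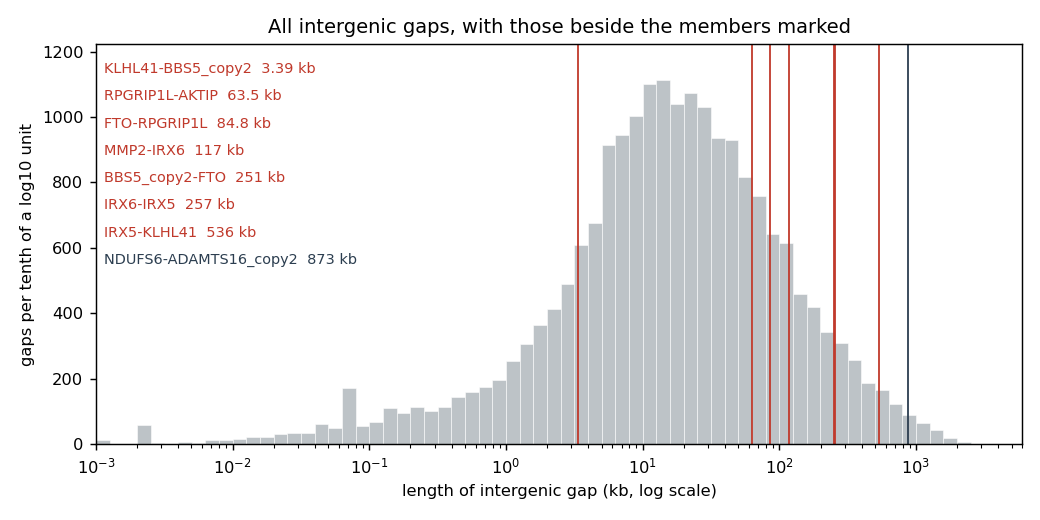
Lengths of all 20408 intergenic gaps in kb on a log scale, with the number of gaps in each length bin on the y axis. Red lines mark the 7 gaps from MMP2 to AKTIP and the dark line marks the gap of 873 kb between NDUFS6 and ADAMTS16_copy2; 6 of the 7 red lines lie above the median of 16.3 kb, and the one of 3.39 kb below it.

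FTO and RPGRIP1L lay head to head, with their 5′ ends 84.8 kb apart. Among 4767 pairs of neighbouring models in that arrangement, 25.03% were as far apart or farther, and the median distance was 27.97 kb. In human and mouse the 2 genes share a promoter region, so their starts lie close together there. The spans of both mole models begin with a coding base. The distance here is thus between the first coding bases of the models, not between transcription starts. The target match of FTO ran from base 13 to base 1203 of its 1290 coding bases. The match thus began within the first exon, which measured 87 bases. Most of the 99 coding bases outside the match lay after its last base. Whether the first exon of the FTO model is the first coding exon of the gene was not tested. The later RefSeq annotation of the mole places 0 features between the 2 genes.

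Gene density changed across the stretch. Within 1 Mb of the IRX6 start there were 42 other gene starts, 39 of them on the MMP2 side and 3 on the FTO side. IRX5 had 27, of which 23 were on the MMP2 side and 4 on the FTO side. FTO had 9, with 3 towards IRX5 and 6 towards RPGRIP1L, and RPGRIP1L also had 9, with 4 towards FTO and 5 beyond itself.

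The median over all genes was 25. As few or fewer starts were found for 70.6% of all genes in the case of IRX6, for 54.2% in that of IRX5 and for 19.1% in those of FTO and RPGRIP1L. These ranks depended on the window. Within 0.5 Mb, IRX5 had 4 other starts, and 18.8% of genes had as few, while IRX6 had 11 and 43.4%. Within 2 Mb, FTO had 41 and 47.4% of genes had as few, RPGRIP1L had 37 and 42.6%, and IRX5 had 87 and 77.8%. Within 1 Mb, both Iroquois models thus had many more starts on the MMP2 side than on the FTO side. Within 0.5 Mb, starts around IRX5 were few, so most of those on its MMP2 side lay farther off.

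SALL1, which encodes a zinc finger protein needed for kidney formation, is on scaffold 26 too, and the labels name 4C primers for it. The starts of RPGRIP1L, FTO, IRX5 and IRX6 lay 1.72, 1.80, 2.65 and 2.91 Mb from that of SALL1. FGF9, the viewpoint of both libraries, lies on scaffold 38, so no member shares a scaffold with it.

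The place of IRX3 was examined next. In human, IRX3 follows FTO and precedes IRX5. In the mole, the interval between the facing edges of the IRX5 and FTO models ran from 23852858 to 24648824 and measured 796 kb. Whether either gene reaches further into it than its model was not tested. Measured between the starts of both models, the interval was 846 kb. It was not empty: KLHL41, at 24389253 to 24390365, and BBS5_copy2, at 24393756 to 24397713, lay inside it on the minus strand. KLHL41 encodes a kelch protein of skeletal muscle, and BBS5 a subunit of the ciliary BBSome, and in human both are neighbours on another chromosome.

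Together these 2 models spanned 8.46 kb, 1.06% of the interval. Single gaps as long as the whole interval made up 1.098% of all gaps. Since the interval holds 2 models, it was also ranked among the 19682 stretches that hold 2 merged models, and there 7.42% were as long, with a median of 125 kb. The rank thus moved by more than 1.5 times with the set it was compared with.

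IRX3 is listed in this interval by RefSeq for MPIMG_talOcc4v2.1, a later build of the mole genome. Between FTO and IRX5 it has 5 features: IRX3, 3 long non-coding RNA genes and 1 pseudogene. Of the non-coding RNA genes, 1 lies between FTO and IRX3 and 2 lie between IRX3 and IRX5. KLHL41 is not listed under that symbol in the RefSeq table, and BBS5 stands there next to FASTKD1, away from the Iroquois genes. The order of the members with a symbol was the same in both tables, from RPGRIP1L through FTO and IRX5 to IRX6 and MMP2. Between RPGRIP1L and MMP2, RefSeq has 4 protein-coding genes with a symbol, of which 3 had a model in the table analysed here.

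KLHL41 and BBS5_copy2 each held the part of a transcript that another model of the same symbol, on scaffold 1, did not. BBS5 on scaffold 1, at 45474708 to 45504040 on the plus strand, matched bases 122 to 874 of its target transcript. BBS5_copy2, between IRX5 and FTO, matched bases 875 to 1084 of the same target. Of its 453 coding bases, 210 were inside this match and 243 were outside. KLHL41 between IRX5 and FTO matched bases 78 to 1187 of its target, and KLHL41_copy2 on scaffold 1, at 45508034 to 45515229 on the plus strand, matched bases 1187 to 1894. The later part of BBS5 and the earlier part of KLHL41 were thus on scaffold 26, and the remaining parts of both were on scaffold 1.

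**Figure D3:**
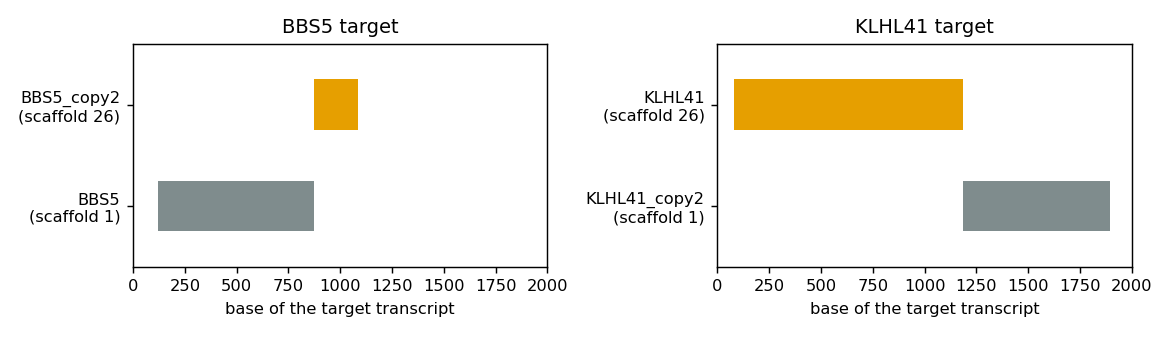
Matched parts of the BBS5 target (left) and the KLHL41 target (right), in bases of the target transcript. Orange bars are the models between IRX5 and FTO on scaffold 26, grey bars the models on scaffold 1; the BBS5 parts meet at bases 874 and 875 and the KLHL41 parts share base 1187.

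On scaffold 1, BBS5 and KLHL41_copy2 were neighbours on 1 strand, 3.99 kb apart, with BBS5 first. On scaffold 26 the same 2 symbols were neighbours on 1 strand too, and in the direction of reading BBS5_copy2 came first. The matched part of BBS5 was its first 8 coding exons, which end at 45489896. Its last 3 coding exons, 1023 coding bases, lay outside the match. The intron after the matched exons measured 12.51 kb, the longest of the model. In KLHL41_copy2, the first 149 coding bases lay before the match.

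Deposited scores can be compared within a symbol. The BBS5 model on scaffold 1 scored 1181 and BBS5_copy2 321. The KLHL41 model on scaffold 26 scored 1656, and KLHL41_copy2 on scaffold 1 scored 1066, 64.4% of it. The KLHL41 model between IRX5 and FTO has no copy suffix, and how suffixes were given is not stated in the table.

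Of 1221 symbols with models on at least 2 scaffolds, 31 (2.54%) had target parts that followed each other within 5 bases across scaffolds, and for 6 of the 31 both scaffolds reached at least 1 Mb. BBS5 and KLHL41 formed the only pair of such symbols that were neighbours at both places, at a tolerance of 5 or of 20 bases. At 0 bases, which the shared base of KLHL41 does not meet, no such pair was found. This search was designed after the target parts of both genes had been seen. Whether the 2 models lie between IRX5 and FTO in the genome or were joined there in assembly was not tested.

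Beyond the members, gene order was set against 22 genes of human chromosome 16, from SALL1 to HERPUD1, listed from general knowledge. IRX3 and CAPNS2 had no record, and both are in the RefSeq table. The other 20 gave 19 successive pairs, of which 18 were kept, meaning that a pair shared a scaffold, was at most 2 Mb apart and had under 5 other genes of the list inside. From SALL1 through TOX3, CHD9, RBL2, AKTIP, RPGRIP1L, FTO, IRX5, IRX6, MMP2 and LPCAT2 to SLC6A2, all pairs were kept.

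The break was between SLC6A2, the noradrenaline transporter gene, and GNAO1, a G protein subunit gene, whose starts lay 22.9 Mb apart on scaffold 26. Beyond SLC6A2, at 23328127 to 23356939, came a model without a symbol and the zinc finger models ZNF25_copy6 and ZNF717_copy4. CDH5, the cadherin gene of endothelial cells, followed at 23204971 to 23224944. In the RefSeq order 19 of 20 pairs were kept, and the same pair was the 1 that was not. On the side of IRX6, the listed order was thus kept up to SLC6A2, 3 models beyond IRX6. Genes that are not on the list were not looked for between SLC6A2 and GNAO1.

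For the cluster of IRX1, IRX2 and IRX4, the flanking genes were present. In human, IRX4 lies beyond NDUFS6, a gene for a subunit of respiratory complex I, followed by IRX2, IRX1 and the metalloproteinase gene ADAMTS16. In the mole, NDUFS6 lay on scaffold 8, at 145782 to 172359 on the plus strand. The next model was ADAMTS16_copy2, at 1045350 to 1055399, with ADAMTS16 at 1065700 to 1086719. The gap from 172360 to 1045349 measured 873 kb and held 0 models in the copy analysed here. Its length and rank depend on that copy being complete at this place, which could not be checked. As long or longer were 175 of 20408 gaps (0.858%), and it ranked 9 of 407 on scaffold 8.

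The RefSeq table of the later build puts IRX4, IRX2 and IRX1 between NDUFS6 and ADAMTS16, in the order known from human. Of these 3 protein-coding symbols, 0 had a record in the copy of the table analysed here. RefSeq has 0 features between ADAMTS16 and IRX1, 0 between IRX1 and IRX2, and 0 between IRX4 and NDUFS6. Between IRX2 and IRX4 it has 1 protein-coding gene without a symbol.

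**Figure D4:**
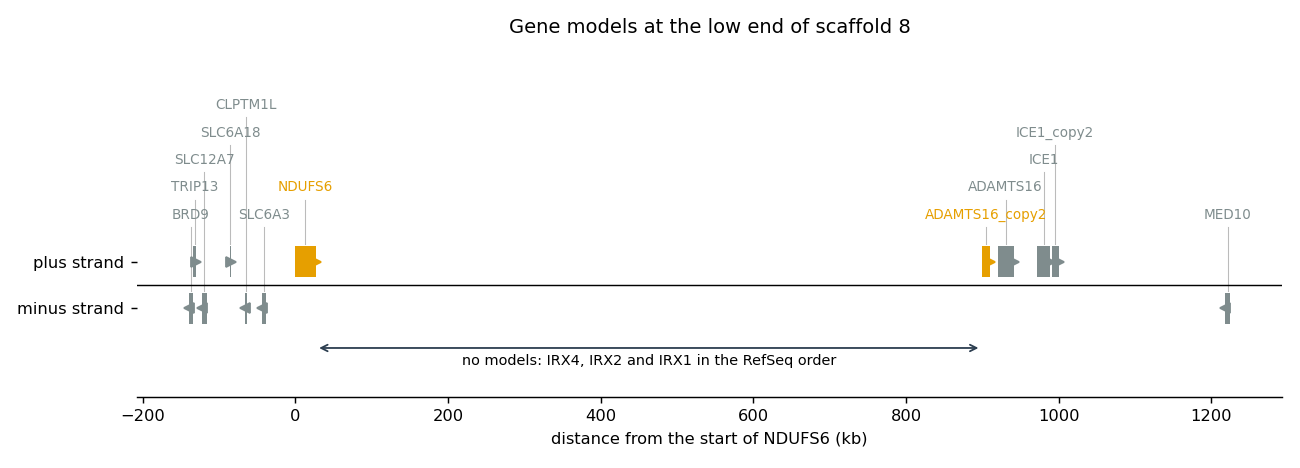
Gene models at the low end of scaffold 8 up to MED10, drawn to scale by strand, with distance from the start of NDUFS6 in kb on the x axis. The double arrow spans the 873 kb between NDUFS6 and ADAMTS16_copy2 (both orange) that hold 0 models and where the later RefSeq order has IRX4, IRX2 and IRX1.

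The 2 clusters differed in what RefSeq lists inside and beside them. Over the 4 intervals from FTO through IRX3, IRX5 and IRX6 to MMP2, it has 5 long non-coding RNA genes, 1 pseudogene and 0 protein-coding genes. Over the 4 intervals from ADAMTS16 through IRX1, IRX2 and IRX4 to NDUFS6, it has 0 long non-coding RNA genes, 0 pseudogenes and 1 protein-coding gene. These are counts in 1 annotation with no test of the difference.

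Around the gap on scaffold 8, the nearest models on the NDUFS6 side were SLC6A3, the dopamine transporter gene, CLPTM1L, SLC6A18 and SLC12A7. On the other side, ADAMTS16_copy2 and ADAMTS16 were followed by ICE1, ICE1_copy2 and MED10, a subunit gene of the Mediator complex. Of 36 listed genes of human chromosome 5, from PLEKHG4B to SEMA5A, 25 had a model, and 23 of their 24 successive pairs were kept. The break, between CEP72 on scaffold 94 and BRD9 on scaffold 8, fell at the low end of scaffold 8, where BRD9 is the first model, at 6490 to 12086. The RefSeq order kept 31 of 31 pairs.

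The other listed genes without a record were TPPP, SLC6A19, TERT and LPCAT1, which RefSeq lists, and PLEKHG4B, ZDHHC11, NKD2 and MRPL36, which it does not list under these symbols. Since NDUFS6 and ADAMTS16 are successive listed genes with models, their pair counts as kept across the empty gap.

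Over the whole Iroquois family, 4 of 6 symbols had no record, while RefSeq lists all 6. IRX3 was looked for as a gene already known to have no model, so its absence is part of the choice of genes. The absence of IRX1, IRX2 and IRX4 rests on the copy analysed here, whose completeness could not be checked. The shares that follow are a description and no test of the family. Of 15999 protein-coding RefSeq symbols, 2000 (12.5%) had no model under the same symbol in the table analysed here, a share that includes genes filed under another name. The family was also set beside the other genes of the TALE class, a list chosen after the Iroquois records had been seen. Of 12 such symbols, 11 had 1 model each, and the other, PBX4, is not listed in RefSeq either.

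Among the models of that class, IRX5 had the shortest coding length, 462 bases, and IRX6 had 765. The other 11 ranged from 546 bases in TGIF1 to 1416 in PKNOX2, with a median of 1102, and TGIF1 and TGIF2 (714 bases) were below IRX6. IRX5 was also the only one of the 13 with 1 coding exon, against 2 in TGIF2 and 12 in MEIS1 and MEIS3. Its match had the highest first base on a target, 1436. MEIS2, a partner of HOX and PBX proteins, followed at base 1329, and IRX6 at base 1175. The remaining 10 began between base 174 and base 733. Lengths and exon counts here are those of deposited models, and whether the IRX5 and IRX6 models are complete was not tested.

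**Figure D5:**
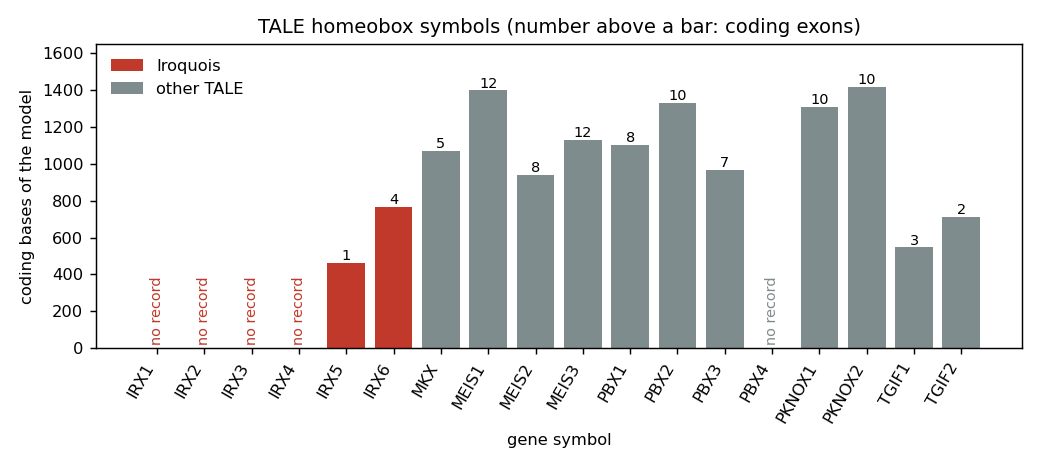
Coding bases of the deposited model of each TALE homeobox symbol, with the number of coding exons above each bar. Red bars are the Iroquois genes (462 bases in IRX5 and 765 in IRX6), grey bars the other symbols of the class (546 to 1416 bases), and symbols without a bar had no record.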

How the data were processed

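The deposited table was the gene annotation of build talOcc3, which has no column for either of the 2 4C-seq libraries. The submitters' processing notes name BWA, and no version is given there. Models came from EVM, exonerate or ALN, per the file's second column. Transcripts carry a score that the authors deposited beside the named target transcript. Its calculation is not described in the labels, so it was compared only within a symbol.

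Gene records gave spans, and coding exons gave coding bases. Gaps lay between merged neighbouring models. Densities counted other gene starts within 1 Mb. Order was kept where successive listed genes shared a scaffold within 2 Mb. A symbol with several models was placed by the one nearest to its listed neighbours. The RefSeq table of the later build, matched by exact symbol, gave names and order only, and none of its positions are printed. Python 3.11.15 and SciPy 1.17.1 were used, and the routines were tested on simulated data.

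Genes were named by rule: the members and IRX3, the 5 nearest models on each side of a cluster, models between members, listed genes at order breaks and listed genes without a model. The BBS5 and KLHL41 models on scaffold 1, FASTKD1, CDH5, SALL1 and the TALE genes were added after their values were seen. Members and lists were chosen with earlier results of these data known. Protein sequences were not used here.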

Additional observations from a re-analysis of the deposited data

How the results depend on the processing

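The number of member models and the kept pairs of both segments stayed within 1.5 times under every alternative run, namely distance limits of 1 and 5 Mb, placement by most coding bases and the RefSeq order (31 and 19 pairs) for the pairs, and no low-confidence models for the models. The FTO to IRX5 interval was 846 kb between gene starts and 1054 kb up to IRX6 when single-exon models did not bound it, both by construction. Its share of gaps was 7.42% among stretches with 2 merged models. The share for the IRX5 to IRX6 gap was 6.54% with symbols only and 6.45% with coding length of at least 300 bases, and that setting gave 1.03% for the NDUFS6 to ADAMTS16_copy2 gap. The other alternatives for gaps moved shares by less than their counting interval. Genes with as few neighbours as IRX5 made up 18.8% (0.5 Mb), 77.8% (2 Mb), 51.5% (symbols only), 53.5% (300 coding bases) and 48.8% (genes at least 1 Mb from scaffold ends). For IRX6 the shares were 43.4% (0.5 Mb), 78.6% (2 Mb), 68.3% (symbols only) and 66.6% (away from ends). For FTO they were 29.2% (0.5 Mb), 47.4% (2 Mb), 15.5% (symbols only) and 8.60% (away from ends), and for RPGRIP1L 29.2%, 42.6%, 15.5% and 8.60% under the same settings. Among models with at least 2 coding exons, 16.3% spanned as much as FTO. With a tolerance of 0 bases, 12 symbols had adjoining target parts in place of 31. The cause was not tested for these shifts. Alternatives for the NDUFS6 and KLHL41 gaps, for stretches with 2 models and for the tolerance were chosen after seeing the data. Not run were the alternatives on gaps inside the IRX1, IRX2 and IRX4 cluster, which has no models here, and on protein identity; the comparison of coding with protein length was not made either. No paired analysis was possible because each tissue has 1 library and no column holds its values. Precision is limited by assembly and annotation, and RefSeq symbols filed under other names are counted as missing.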
